A study of Mus musculus with 18 samples.

Results

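The loading of mRNAs onto heavy polysomes was compared between RAW264.7 macrophages that received LPS together with torin1 and resting macrophages. The comparison used 12 of the 18 libraries of the series. It took polysome-associated minus total mRNA of the same lysate, on the log2 scale, as the translation efficiency of an mRNA in that lysate, and then the difference of this value between LPS with torin1 and control. All 11243 protein-coding genes of the count table entered. A negative difference means that an mRNA was loaded less, relative to its abundance and to the other mRNAs of the library, than in resting cells.

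RAW264.7 is an established mouse macrophage line. Control cells received the vehicle DMSO. The other cells were first kept for 15 min with torin1 at 100 nM, which inhibits the kinase mTOR. They were then kept for 6 h with torin1 and LPS of Salmonella enterica serotype minnesota at 500 ng/mL together. Cells with LPS alone were the remaining group and served to estimate the spread. Each treatment was made in 3 independent experiments. Every lysate was sequenced both as total mRNA and as mRNA of the pooled heavy polysome fractions. No libraries of cells with torin1 but without LPS were used here, so the contrast holds the effects of both agents, which cannot be told apart within it. Control libraries held 27800983 to 45801886 counts and libraries of LPS with torin1 30422715 to 47725557 counts. Of 10 macrophage markers, 9 were measured (Mertk was not in the table), with a sum of 10752 to 19644 CPM (counts scaled to library size) in each of the 12 libraries. Of 20 markers of other cell types only Cdh5 and Pdgfrb were in the table, with a sum of 0.913 to 1.82 CPM.

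In polysome profiling, a lysate is separated on a sucrose gradient, and mRNAs that carry many ribosomes sediment into the heavy fractions. mTOR complex 1 phosphorylates the 4E-BP repressors of the cap-binding protein eIF4E, and the protein LARP1, which binds the start of a particular class of mRNAs. This class, the 5′ terminal oligopyrimidine (TOP) mRNAs, begins with a cytosine followed by a run of pyrimidines and holds the mRNAs of the ribosomal proteins and of several translation factors. Inhibitors of mTOR are known to release TOP mRNAs from polysomes. LPS activates mTOR complex 1 in macrophages.

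Against resting cells, the mRNAs of ribosomal proteins had the lowest medians, as means of 3 experiments, among the classes below 0 in each experiment. The median over 32 small subunit proteins was −0.59 ± 0.10 (log2; mean ± SD of 3 experiments) and that over 47 large subunit proteins −0.39 ± 0.14, against −0.02 ± 0.02 over all genes. The mRNAs of replication-dependent histones had a still lower median of −0.96, but with an SD of 1.29, since they lay below 0 in experiments 1 and 3 and above 0 in experiment 2. AP-1, NF-kB and MHC class I genes had medians on either side of 0 in the same way, with smaller values. The other classes described, among them the lysosome genes and the V-ATPase, had means within 0.15 of 0. Of 34 classes, the 17 ferritin and polyamine genes alone had medians above 0 in all experiments, at 0.25, 0.04 and 0.09. Classes are described by counts and medians beside all genes, and the lowest and highest members are named among those with at least 10 counts in every library.

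The lysates did not behave alike. The profile of polysome-associated minus total mRNA over all 11243 genes had a correlation of 0.872 to 0.917 between the control lysates. The lysate of LPS with torin1 in experiment 2 correlated with the controls at 0.903 to 0.914, those of experiments 1 and 3 at 0.733 to 0.769 and 0.674 to 0.736. The spread of the profile over genes (SD) was 0.506 and 0.417 in these last lysates, 0.686 in that of experiment 2, and 0.566 to 0.749 in the controls. In the LPS group, the lysate of experiment 3 also stood apart, with correlations of 0.792 to 0.851 with the controls. The differences of single genes correlated at 0.69 across genes between experiments 1 and 3, but at −0.35 between 1 and 2 and at −0.32 between 2 and 3. Whether the lysate of LPS with torin1 in experiment 2 was treated as labelled, or fractionated like the others, was not tested beyond its own values. The median total mRNA of 12 chemokine genes was higher than in control by 4.84, 4.77 and 5.36 in experiments 1, 2 and 3, which bears on LPS but not on torin1. The means and SDs of 3 experiments hold this lysate, and values are given by experiment for that reason.

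This pattern was visible when genes were split into 5 equal classes by their polysome-associated minus total mRNA in the LPS lysates, which are outside the contrast. In experiment 1 the median difference went from 0.33 in the class loaded least to −0.44 in the class loaded most. In experiment 3 it went from 0.24 to −0.33. In experiment 2 it went the other way, from −0.22 to 0.10. Of the 79 ribosomal protein genes, 38 were in the class loaded most and 24 in the next. In the class loaded most their median was −0.43, −0.62 and −0.65 by experiment, against −0.44, 0.10 and −0.33 of the other genes in it. In the next class it was −0.36, −0.40 and −0.47, against −0.25, 0.04 and −0.13. In experiment 1, therefore, the ribosomal protein genes of the class loaded most were no lower than other genes of like loading, whereas they were lower in experiments 2 and 3.

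**Figure D1:**
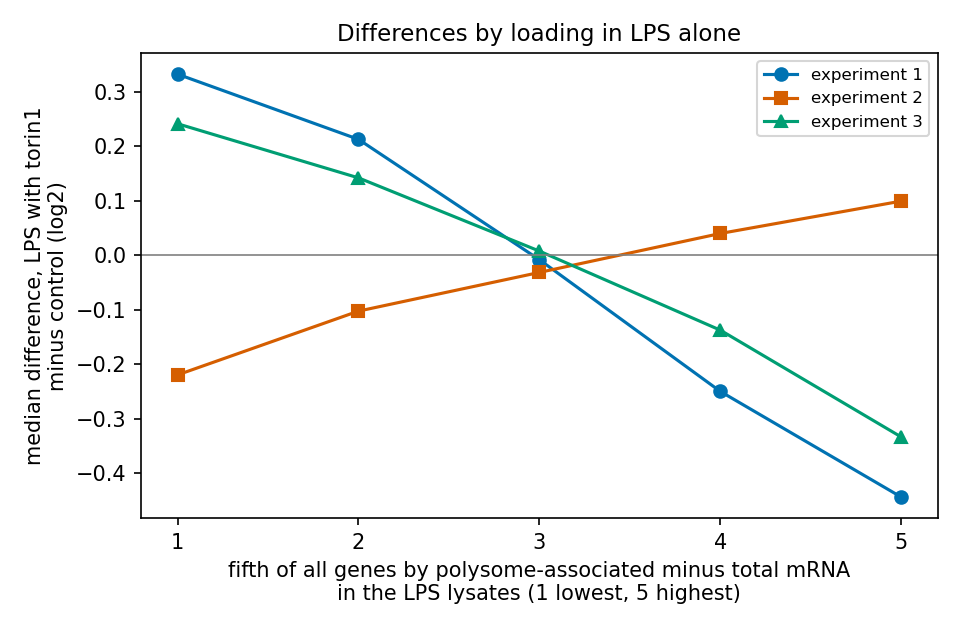
Median difference in translation efficiency (LPS with torin1 minus control, log2, vertical axis) in each of 5 equal classes of all 11243 genes, ordered by polysome-associated minus total mRNA in the LPS lysates (horizontal axis), with one line per experiment. The lines of experiments 1 and 3 run downwards, from 0.33 to −0.44 and from 0.24 to −0.33, and that of experiment 2 upwards, from −0.22 to 0.10.

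At the false discovery rate of 0.25 and the fold of 1.2 taken from the study's methods, edgeR's quasi-likelihood test with the lysate as block called 3 of 11243 genes (0.0267%), all lower: Rps18, Rps19 and Tmem132a. None was called higher, and the smallest adjusted p of a higher gene was 0.589. An unadjusted p under 0.05 was found for 820 genes, of which 703 were lower (6.25% of all genes) and the others higher (1.04%). Lower genes made up 85.7% of the 820, but 69.2% with DESeq2's size factors and 67.1% with upper quartile scaling. DESeq2's Wald test with the same block called 35 genes, 32 lower (0.285%) and 3 higher (0.0267%), of which 23 were ribosomal proteins. Rps18 and Rps19 were among them. DESeq2 gave no adjusted p for 5231 of the 11243 genes, Tmem132a among them, and could not call these. A count of 0 from DESeq2 in a class covers only its members with an adjusted p. The edgeR count depended on the experiments included. Without experiment 1 it was 0, without experiment 3 it was 2, and without experiment 2 it was 3708, of which 2127 were lower (18.9%) and 1581 higher (14.1%). These last calls rest on 2 lysates per treatment, from the 2 experiments whose differences were alike. Class counts without experiment 2, given below beside all genes, describe these 2 experiments only and are no further support. The p-values measure the spread of polysome-associated minus total mRNA between lysates of the same treatment, over all 9 lysates. They do not measure the spread of the differences by experiment. With a block for the experiment in addition, edgeR called 27 genes, 26 lower and 1 higher, of which 20 were ribosomal proteins.

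The first of the called genes, Rps19, encodes a protein of the small ribosomal subunit and lies on chromosome 7 of GRCm38 from 24884371 to 24889806, plus strand. In total mRNA it measured 337, 384 and 372 CPM in the control lysates of experiments 1, 2 and 3, and 376, 438 and 388 CPM with LPS and torin1. In polysome-associated mRNA it measured 381, 456 and 396 CPM in control, and 262, 292 and 225 CPM with LPS and torin1. The ranges overlapped in total mRNA and were apart in polysome-associated mRNA. The mean of polysome-associated mRNA was 411 ± 39.6 CPM in control and 260 ± 33.8 CPM with LPS and torin1 (mean ± SD, n = 3). The difference in translation efficiency was −0.70, −0.83 and −0.87 in the 3 experiments and −0.80 in the edgeR fit (standard error 0.13, adjusted p = 0.229 from edgeR).

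Rps18, also a protein of the small subunit, lies on chromosome 17 from 33951999 to 33956001, minus strand. It measured 277, 295 and 252 CPM of total mRNA in control, and 332, 362 and 298 CPM with LPS and torin1. Its polysome-associated mRNA was 373, 432 and 337 CPM in control and 277, 319 and 225 CPM with LPS and torin1. Total mRNA was thus higher in each experiment, while polysome-associated mRNA was lower in each. The difference was −0.69, −0.73 and −0.82 by experiment and −0.75 in the fit (standard error 0.13, adjusted p = 0.229, edgeR). Vps52 overlaps Rps18 on the other strand, and 3 annotated pseudogenes are named after Rps18 and 14 after Rps19, so that reads shared with these copies are uncertain.

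Tmem132a encodes a transmembrane protein and lies on chromosome 19 from 10857822 to 10869940, minus strand. Its total mRNA was 3.26, 2.73 and 3.11 CPM in control and 22.2, 21.7 and 19.3 CPM with LPS and torin1. Its polysome-associated mRNA was 10.5, 4.30 and 8.06 CPM in control, and 12.1, 22.1 and 18.1 CPM with LPS and torin1. Both RNA types were higher in every treated lysate, total mRNA by 2.80 (log2; adjusted p = 2.3e-07, edgeR) and polysome-associated mRNA by 1.22 (adjusted p = 0.012, edgeR). The difference in translation efficiency was −2.41, −0.55 and −1.34 by experiment, and −1.56 in the fit (standard error 0.27, adjusted p = 0.229, edgeR). Slc15a3 overlaps it on the other strand. With LPS alone, the difference from control of Tmem132a was −1.53, and that of LPS with torin1 from LPS −0.03. For Rps19 these values were 0.19 and −0.99, and for Rps18 0.15 and −0.90. The comparisons share libraries, so these values stand only side by side.

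**Figure D2:**
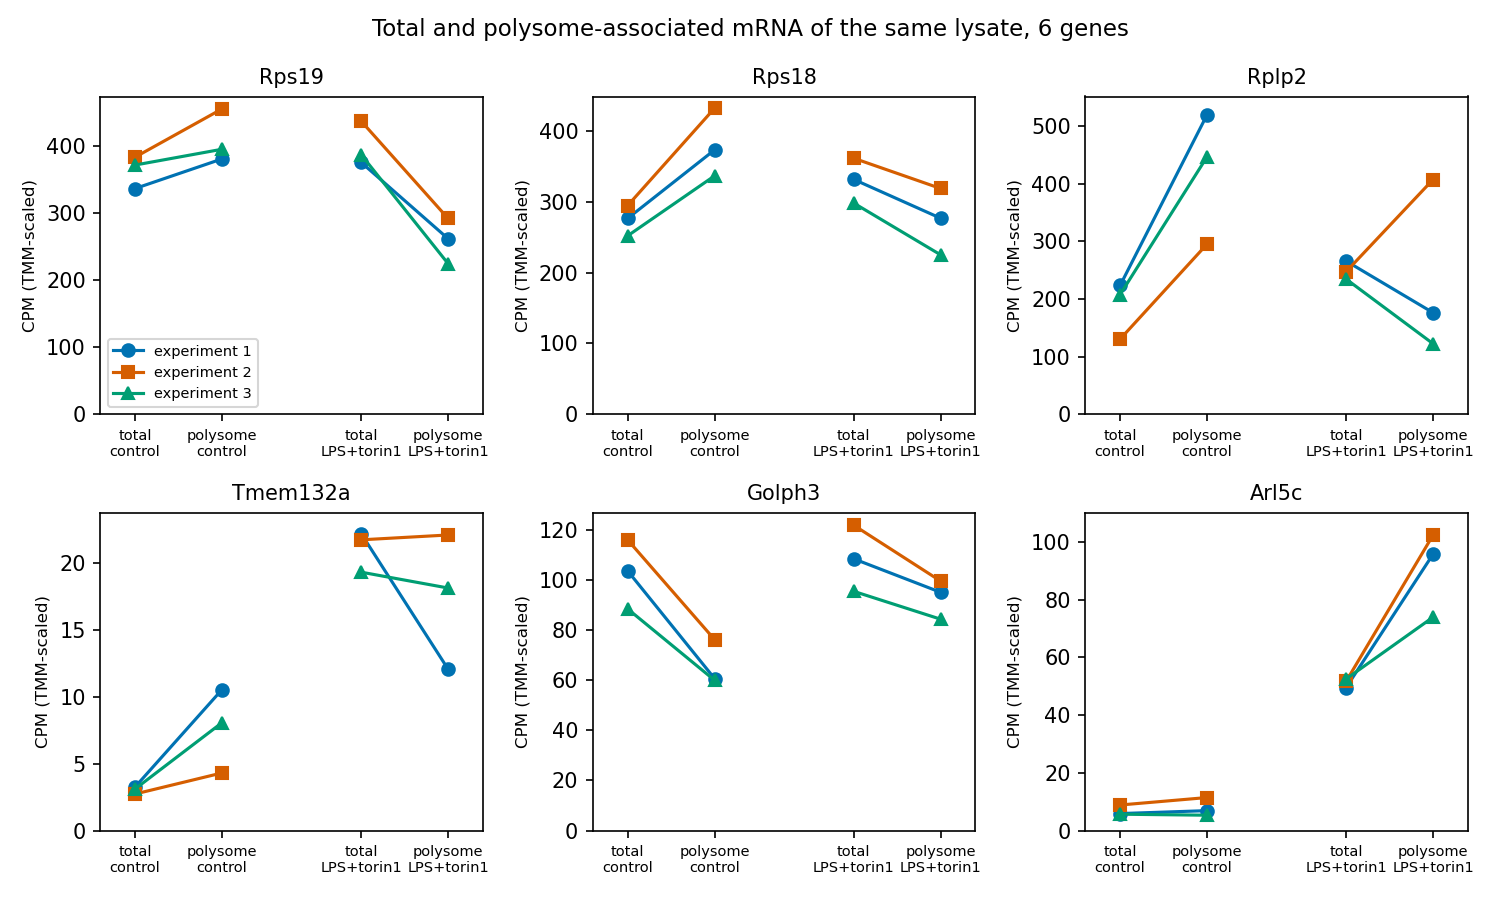
Total and polysome-associated mRNA (TMM-scaled CPM, vertical axis from 0) of 6 genes in the 3 control lysates and the 3 lysates of LPS with torin1, with one line per lysate and one colour per experiment. The lines of Rps19 and Rps18 rise from total to polysome in control and fall in each lysate of LPS with torin1 (Rps19 in experiment 1: 337 to 381 CPM and 376 to 262 CPM). For Rplp2 the line of experiment 2 rises after LPS with torin1 as well, and Golph3 and Arl5c show the opposite difference.

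Ribosomal protein mRNAs made up 13 of the 15 genes of smallest p that were loaded less in all 3 experiments, which are not those of largest fall. Beside the 3 called genes, these included, in order of p and none of them called, Rpl12, Rpl13, Rpl37, Rps23, Rps15, Rps14, Rplp2, Rpl27a, Gm11808 and Rps9, with adjusted p-values of 0.328 to 0.426 in edgeR. The fitted differences of the 15 genes ran from −1.56 to −0.65. Their values lay between −2.41 and −0.38 in all single experiments. In each of them the 3 lysates of LPS with torin1 were below the 3 control lysates, as in 779 genes of all (6.93%). The 15 genes were chosen by sign and p in the same lysates, so this separation adds no support.

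By class, 64 of 79 ribosomal protein mRNAs were below 0 in experiment 1, 76 in experiment 2 and 76 in experiment 3, against 5757, 6326 and 5656 of the 11243 genes. In all 3 experiments 60 of 79 were lower, against 14.6% of all genes, and 0 were higher, against 8.79%. The groups of lysates did not overlap for 55 of 79, all lower (6.93% of all genes). For none was LPS with torin1 above control (2.84% of all genes). In edgeR, 56 of 79 had an unadjusted p under 0.05, all lower, against 6.25% of all genes. Without experiment 2, 49 were called lower and 2 higher, where 18.9% and 14.1% of all genes were. The median polysome-associated minus total mRNA of the small subunit genes was 0.42, 0.57 and 0.45 in the control lysates and −0.12, 0.06 and −0.29 with LPS and torin1. For the large subunit genes it was 0.37, 0.53 and 0.40 in control, and 0.02, 0.08 and −0.13 with LPS and torin1. The class medians did not overlap between the treatments in either subunit, and the lysate of LPS with torin1 in experiment 2 was the highest of its group in both.

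Both RNA types entered this difference. In total mRNA, the median change of the 79 genes was 0.20, 0.24 and 0.14, and 35 genes were higher and 2 lower at the false discovery rate of 0.25 in edgeR, where 33.1% and 33.6% of all genes were. In polysome-associated mRNA, the median change was −0.14, −0.23 and −0.50, and 31 genes were lower and 2 higher, where 29.7% and 28.5% of all genes were. With LPS alone, the difference in translation efficiency from control had a median of 0.31, −0.08 and 0.07. For LPS with torin1 against LPS it was −0.65, −0.40 and −0.72. CPM values are relative to each library, so a loss of polysomes shared by all mRNAs would not appear in them. As the lysates were bulk samples, fewer cells with an mRNA and less of it per cell cannot be told apart.

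**Figure D3:**
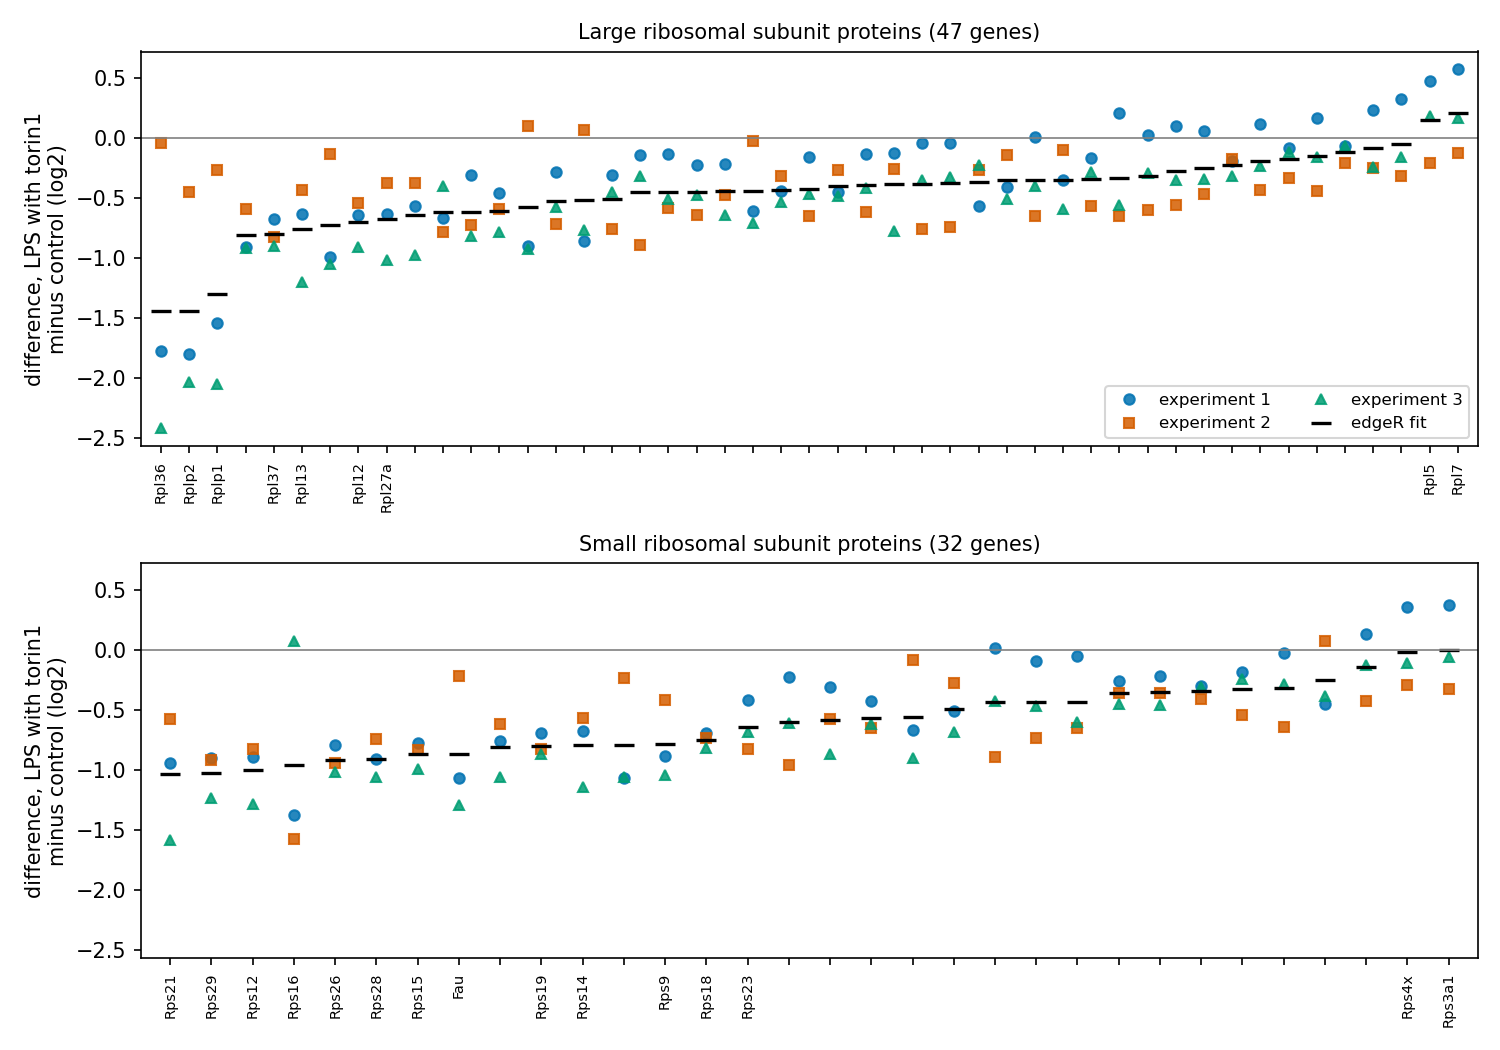
Difference in translation efficiency (LPS with torin1 minus control, log2, vertical axis) of 47 large and 32 small ribosomal subunit protein genes, ordered by the edgeR fit (black bar), with one symbol per experiment and names under the genes that the text describes. The fits run from −1.44 (Rpl36) to 0.20 (Rpl7) in the large subunit and from −1.04 (Rps21) to −0.0034 (Rps3a1) in the small subunit, and the symbols of experiment 3 spread most, from −2.42 to 0.18.

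The members of the class differed among themselves. At the low end of the large subunit stood Rpl36 with −1.44 (standard error 0.49) and Rplp2 with −1.44 (0.32). Rplp2 encodes an acidic protein of the ribosomal stalk, which contacts the elongation factors. Its values were −1.81, −0.46 and −2.04 by experiment, and those of Rpl36 −1.78, −0.04 and −2.42. Both were closest to 0 in experiment 2. Rplp1, the partner of Rplp2 in the stalk, is named here after its values were seen, and had −1.54, −0.27 and −2.05. At the high end stood Rpl7 with 0.20 (0.19) and Rpl5 with 0.15 (0.17). Rpl5, which forms a particle with the 5S ribosomal RNA, had 0.47, −0.21 and 0.18.

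In the small subunit, Rps21 had −0.95, −0.58 and −1.59, and Rps29 −0.91, −0.92 and −1.24. At the high end, Rps4x had 0.35, −0.30 and −0.11, and Rps3a1 0.37, −0.32 and −0.06. The fitted values of these last genes, −0.02 and −0.0034, turned to 0.02 and 0.04 with DESeq2's size factors. Split by coding length, the class had medians of −0.49 ± 0.21 over the 26 shortest, −0.50 ± 0.12 over the middle 26 and −0.43 ± 0.11 over the 27 longest mRNAs (mean ± SD of 3 experiments). Split by abundance in total mRNA, it had −0.47 ± 0.03, −0.52 ± 0.19 and −0.38 ± 0.10 from the least to the most abundant, which overlap by experiment. Over other genes within the range of coding lengths of the ribosomal proteins, 138 to 1257 bases, the median was −0.03, −0.02 and −0.04 in the 3 experiments.

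The annotated starts of these genes were read because the TOP motif lies at the first bases of the mRNA. RefSeq start sites on GRCm38.p6 were found for 9023 of 11243 genes and 58 of 79 ribosomal protein genes. Each line gives 10 bases ahead of the annotated start and 20 from it on. Only the strand of the gene was searched. Capitals mark the pyrimidine run that begins with a cytosine at the start or within 5 bases of it, and a line without capitals has no such run. The first 8 are the ribosomal protein genes with the lowest fitted differences among those with a start, of which 4 have a run and 4 have none. Rps18 and Rps19 are shown because they were called, and Eef1a1 and Rpl5 as genes above 0.
Rplp2 at chr7:141447641-141447670 on the plus strand: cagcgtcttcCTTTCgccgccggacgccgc
Rps21 at chr2:180257369-180257398 on the plus strand: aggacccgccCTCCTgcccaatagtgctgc
Rps12 at chr10:23787190-23787219 on the minus strand: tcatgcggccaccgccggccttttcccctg
Rps16 at chr7:28350679-28350708 on the plus strand: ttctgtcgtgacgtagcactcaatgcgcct
Rps26 at chr10:128626487-128626516 on the minus strand: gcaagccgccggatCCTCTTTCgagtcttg
Rps28 at chr17:33824543-33824572 on the minus strand: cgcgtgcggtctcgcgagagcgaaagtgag
Rps15 at chr10:80292421-80292450 on the plus strand: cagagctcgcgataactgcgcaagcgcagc
Fau at chr19:6057937-6057966 on the plus strand: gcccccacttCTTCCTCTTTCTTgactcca
Rps18 at chr17:33955646-33955675 on the minus strand: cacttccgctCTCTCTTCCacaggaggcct
Rps19 at chr7:24884582-24884611 on the plus strand: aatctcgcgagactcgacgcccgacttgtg
Eef1a1 at chr9:78481705-78481734 on the minus strand: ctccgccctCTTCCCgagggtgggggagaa
Rpl5 at chr5:107900518-107900547 on the plus strand: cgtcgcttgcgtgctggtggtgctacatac

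A cytosine at the annotated start followed by at least 4 pyrimidines was present in 14 of 58 ribosomal protein genes (24.1%), against 2.89% of all genes with a start. A run of at least 6 pyrimidines within 5 bases of the start was present in 26 of 58 (44.8%), against 12.8%. Within the class, the 14 genes with the match at the first base had a median difference of −0.47 ± 0.10 and the 44 others −0.50 ± 0.07. The 26 genes with the wider match had a median difference of −0.55 ± 0.10 and the 32 others −0.41 ± 0.14, which overlap by experiment. Outside the ribosomal proteins, the 1131 genes with the wider match had −0.04 ± 0.02 and the 7834 genes without it −0.01 ± 0.02. Of the genes that were lower in all 3 experiments and encode no ribosomal protein, 14.8% had the wider match, and of those higher in all 3 experiments 12.3%. The annotated start is 1 base of a region in which transcription can begin, so a missing match says only that these letters are not in this window.

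The TOP mRNAs outside the ribosome, 18 genes of translation factors and ribosome-bound proteins, did not have a common direction. Their median was 0.14, −0.28 and 0.10 by experiment, and the mean of the medians, −0.01, turned to 0.03 with DESeq2's size factors. In all experiments 3 were lower (16.7%) and 2 higher (11.1%), against 14.6% and 8.79% of all genes. Tpt1, the translationally controlled tumour protein, had the lowest value. Its polysome-associated minus total mRNA was −0.58, −0.59 and −0.64 in control and −1.12, −1.24 and −1.24 with LPS and torin1, without overlap. The fitted difference was −0.60 (standard error 0.14, adjusted p = 0.426 in edgeR and 0.0602 in DESeq2). Gnb2l1, which encodes the ribosome-bound scaffold RACK1, had −0.41, 0.00 and −0.39. At the other end, Eef1a1, which delivers aminoacyl-tRNA to the ribosome, had 0.26, 0.11 and 0.29, and the poly(A)-binding protein gene Pabpc1 had 0.20, −0.22 and 0.53. The groups overlapped for Gnb2l1, Eef1a1 and Pabpc1.

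Over 44 other translation factors, the median was 0.30, −0.13 and 0.19. In all experiments 7 were lower (15.9%) and 3 higher (6.82%), against 14.6% and 8.79% of all genes. Eif4ebp1, the 4E-BP gene through which mTOR acts on eIF4E, had −0.76, 0.08 and −0.82. Eif6, which keeps the large subunit from joining, had −0.70, 0.27 and −0.69. Eif2s3x and Eif4g2 were the highest, with fitted values of 0.30 and 0.27. The mRNAs of 76 mitochondrial ribosomal proteins, which serve the ribosome inside mitochondria, had medians of 0.00, −0.01 and −0.19. Their total mRNA had a median change of −0.34 ± 0.05 and their polysome-associated mRNA one of −0.37 ± 0.09.

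**Figure D4:**
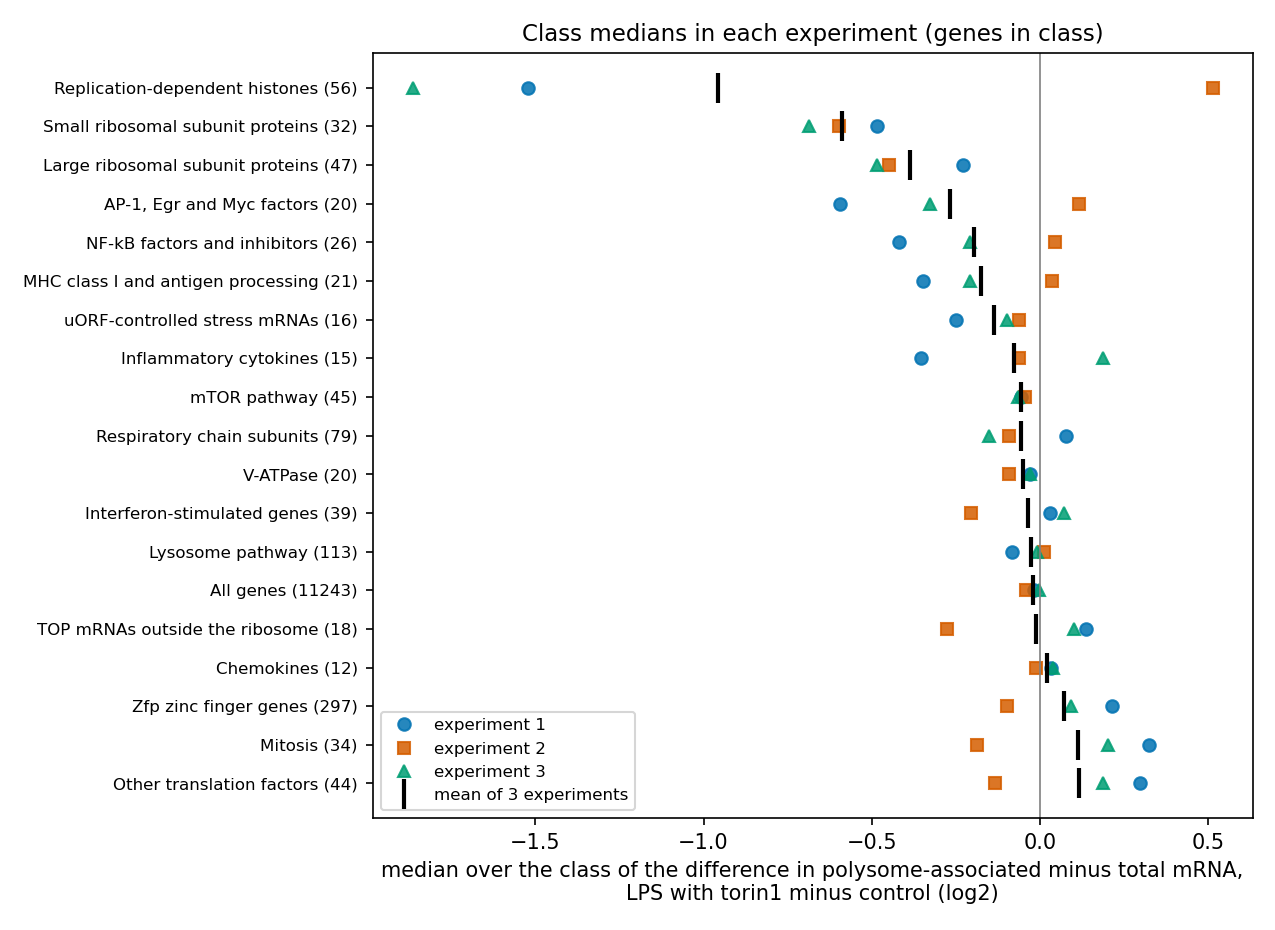
Median difference in translation efficiency (LPS with torin1 minus control, log2, horizontal axis) of 18 gene classes and of all genes, with the number of genes in brackets, one symbol per experiment and a bar at the mean. The ribosomal protein classes lie left of 0 with all 3 symbols (small subunit −0.48, −0.60 and −0.69), whereas histones have −1.52 and −1.87 in experiments 1 and 3 and 0.51 in experiment 2.

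Replication-dependent histones had the widest values of all classes. Their mRNAs end in a stem-loop instead of a poly(A) tail and are made in S phase, and the libraries hold them because they were made by removal of ribosomal RNA. The median over 56 genes was −1.52, 0.51 and −1.87 by experiment. In experiments 1 and 3, 55 of 56 genes were below 0, and in experiment 2 only 10 were. The class medians of polysome-associated minus total mRNA were 2.70, 2.07 and 2.21 in the control lysates, and 1.14, 2.47 and 0.42 with LPS and torin1, with overlap. In the LPS lysates they were 1.98, 2.06 and 0.99. In resting cells histone mRNAs were loaded above the median gene, and 2 of 3 lysates of LPS with torin1 were below every control lysate.

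All 5 histone families had this split, with medians from −2.16 to −0.85 in experiments 1 and 3 and from 0.21 to 0.92 in experiment 2. In total mRNA, 54 of 56 histone genes were lower at the false discovery rate of 0.25 in edgeR, and 55 of 56 were in polysome-associated mRNA. Of all genes, 33.6% and 29.7% were. The median of total mRNA was −1.30 ± 0.26, with −1.47, −0.998 and −1.44 by experiment. That of polysome-associated mRNA was −2.31 ± 1.46, with −3.07, −0.63 and −3.24. In translation efficiency edgeR and DESeq2 called 0 histones, where they called 3 and 35 of all 11243 genes. An alternative test, the analysis of partial variance, called Hist1h2ad lower among its 2 genes. An unadjusted p under 0.05 in edgeR was found for 14 (25%, against 6.25% of all genes), all lower. Without experiment 2, the only one in which the class lay above 0, the test called 47 of 56 lower, against 18.9% of all genes. Hist1h2al had 173, 35.03 and 99.9 CPM on polysomes in control, and 10.9, 68.7 and 5.50 CPM with LPS and torin1. Its difference was −2.43, 1.35 and −3.26, and that of Hist1h2ak −2.21, 0.73 and −2.83. At the other end, Hist3h2a had 0.80, 0.30 and 0.21, with as few as 14 counts in a library, and Hist2h2ab −0.06, 0.57 and −0.77. Histone genes share long stretches of sequence, so the assignment of reads to single genes is uncertain, and 9 of the 56 had fewer than 10 counts in a library.

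Genes of DNA replication and mitosis, which dividing cells express along with histones, had medians nearer to 0. Total mRNA of 40 DNA replication genes was −1.42 ± 0.07 and polysome-associated mRNA −1.38 ± 0.01, with medians in translation efficiency of 0.18, −0.09 and −0.00. For 34 mitosis genes the medians were 0.32, −0.19 and 0.20. Top2a, the topoisomerase that untangles chromosomes, had 0.66, −0.01 and 0.48, and the checkpoint kinase gene Bub1 0.70, −0.14 and 0.42. Aurkb and Cdca8, members of the chromosomal passenger complex, were the lowest with fitted values of −0.33 and −0.30.

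**Figure D5:**
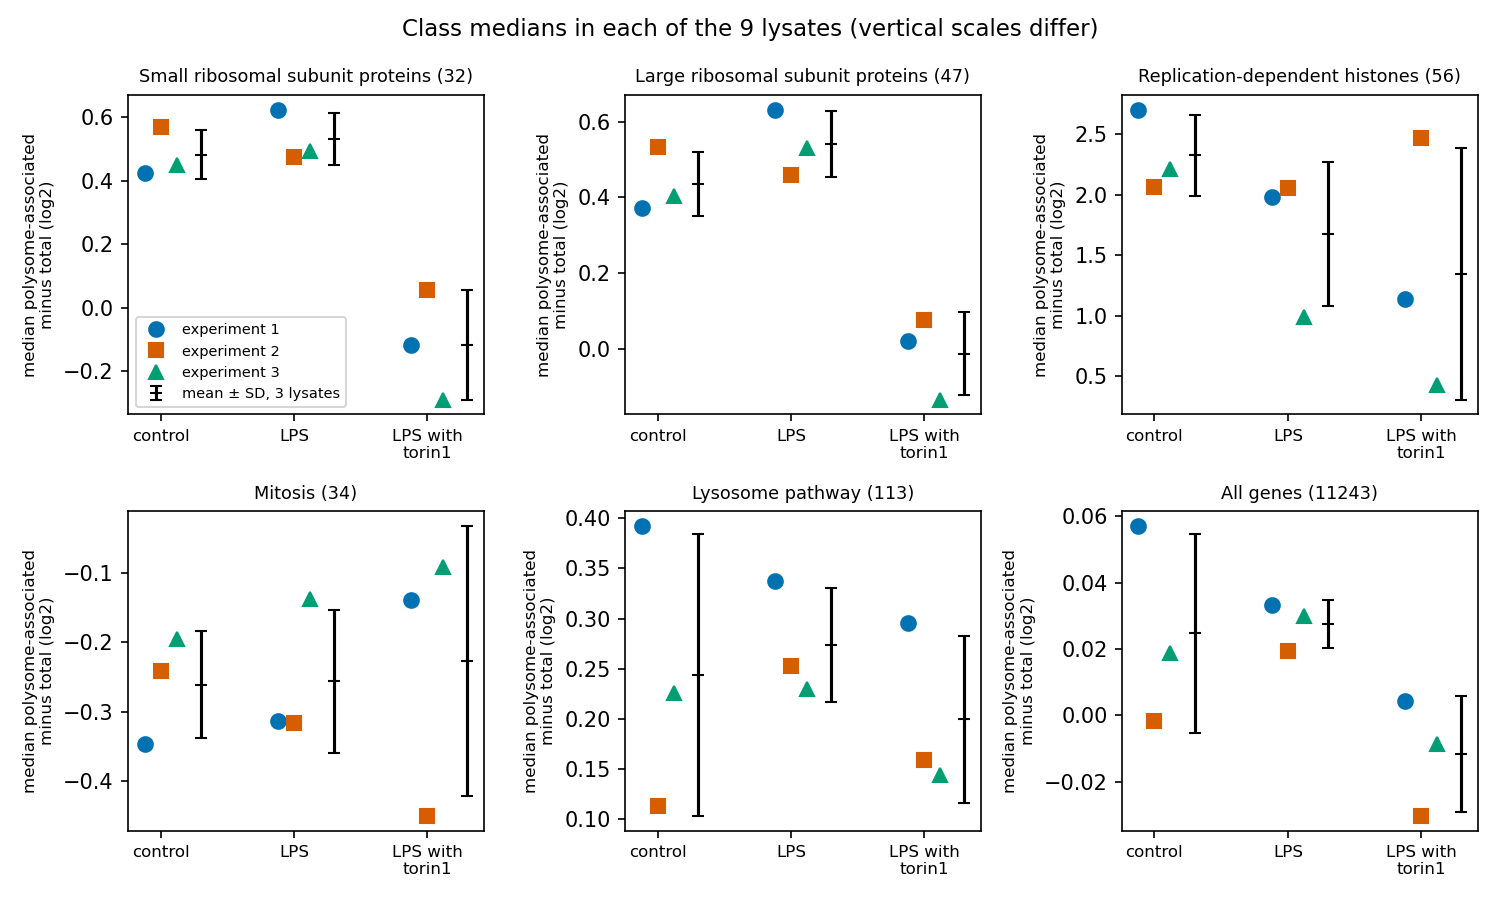
Median polysome-associated minus total mRNA (log2, vertical axes with different scales) of 6 gene classes in the 9 lysates, by treatment, with one symbol per experiment and the mean ± SD of 3 lysates beside them. For both ribosomal protein classes the 3 lysates of LPS with torin1 lie below all control and LPS lysates, whereas for histones and mitosis genes the lysate of experiment 2 lies apart from those of experiments 1 and 3 (histones 2.47 against 1.14 and 0.42).

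Among the transcription factors of the early response, the 20 AP-1, Egr and Myc genes had medians of −0.60, 0.12 and −0.33. Junb, a subunit of AP-1, had the lowest value. On polysomes it measured 257, 77.8 and 123.8 CPM in control and 96.0, 315 and 87.9 CPM with LPS and torin1, and in total mRNA 87.7, 40.5 and 51.4 against 120, 142 and 120 CPM. Its total mRNA was higher in each treated lysate, whereas its polysome-associated mRNA was higher in that of experiment 2 alone. The difference was −1.86, 0.21 and −1.71 by experiment and −1.14 in the fit (standard error 0.35, adjusted p = 0.659, edgeR). The immediate early gene Ier2 had −1.40, 0.40 and −0.79. Maff, a small Maf protein, had the highest value with 0.30, 0.70 and 0.68, and Hif1a had 0.63, −0.21 and 0.31.

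The 26 NF-kB factors and inhibitors had medians of −0.42, 0.04 and −0.21, with Nfkbib, an inhibitor of NF-kB, at −1.13, 0.43 and −0.83 and Tnip1, a partner of the deubiquitinase A20, at −0.91, −0.10 and −0.43. Rel, an NF-kB subunit, had 0.52, 0.01 and 0.49, and Irak3, a brake on Toll-like receptor signalling, 0.26, 0.02 and 0.26. Without experiment 2, 15 of the 26 were called lower and 1 higher, and 11 and 1 of the 20 AP-1, Egr and Myc genes, against 18.9% and 14.1% of all genes. Experiment 2 was the one in which the medians of both classes lay above 0. The 21 genes of MHC class I and antigen processing had −0.35, 0.04 and −0.21. In this class Psmb10 and Psmb9, subunits of the immunoproteasome, had the lowest fitted values (−0.65 and −0.47), and the chaperone gene Canx and the peptidase gene Erap1 the highest (0.31 and 0.27).

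Most cytokine and chemokine mRNAs rose in both RNA types. In loading edgeR and DESeq2 called 0 of them, where they called 3 and 35 of all 11243 genes. At an unadjusted p under 0.05 in edgeR, 1 cytokine (6.67%) was lower and 1 chemokine (8.33%) higher, against 6.25% and 1.04% of all genes. In total mRNA 13 of 15 cytokine genes and 12 of 12 chemokine genes were higher at the false discovery rate of 0.25 in edgeR, and 14 and 12 were in polysome-associated mRNA. The shares over all genes were 33.1% in total and 28.5% in polysome-associated mRNA. The class medians of total mRNA were 4.02 ± 0.42 and 4.99 ± 0.33 (log2), and those of polysome-associated mRNA 4.10 ± 0.44 and 4.94 ± 0.41. In translation efficiency the medians were −0.35, −0.06 and 0.19 for cytokines, and 0.03, −0.01 and 0.04 for chemokines. The neutrophil chemokine Cxcl2 had the highest value with 0.03, 0.77 and 0.78, while Ccl9 had 0.71, −0.15 and 0.16. Cxcl10 and Cxcl11, ligands of CXCR3, were the lowest, with fitted values of −0.15 and −0.19. Among cytokines, Csf3, the granulocyte colony-stimulating factor, had −1.80, −0.05 and 0.04, from 15 counts upwards, and Vegfa −0.98, −0.32 and 0.29. Il18 (0.99, −0.51 and 0.63) and Il27 (−0.15, 0.56 and 0.42) were the highest. Il6, Il12b, Il23a, Csf2, Ifnb1 and Inhba were not in the table, nor were Ccl12, Ccl22, Cxcl1, Cxcl3 and Cx3cl1. The authors had removed genes with 0 counts in any library.

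All 39 interferon-stimulated genes were higher in both RNA types at the false discovery rate of 0.25 (edgeR), against 33.1% and 28.5% of all genes. The class medians were 1.76 ± 0.31 in total and 1.76 ± 0.30 in polysome-associated mRNA. In loading the medians of the difference were 0.03, −0.20 and 0.07. Bst2, which tethers virions, had −1.08, 0.23 and −1.08, and Irf7, the regulator of type I interferon genes, −0.99, −0.27 and −0.37. Gbp5 and Ifit3 were the highest, with fitted values of 0.46 and 0.36. The 16 mRNAs whose translation upstream open reading frames control had −0.25, −0.06 and −0.10. Cebpb, which encodes a transcription factor of myeloid cells, had −0.86, −0.04 and −0.63, and Atf5 −0.72, 0.72 and −0.81. Ibtk and Nfe2l2 were the highest with 0.34 and 0.14 in the fit.

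The study is concerned with lysosomes, and compared LPS with control and LPS with torin1 against LPS. It proposes that pooling polysome fractions may hide shifts of some mRNAs, among them Lamp1 and V-ATPase subunits. No lysosome gene was called in loading here, where edgeR called 3 (0.0267%) and DESeq2 35 of all 11243 genes. Of the lysosome genes, taken from the list in the study's supplement, 68 were higher and 21 lower in total mRNA at the false discovery rate of 0.25, and 62 and 14 in polysome-associated mRNA. These are 60.2% and 18.6% in total mRNA, against 33.1% and 33.6% of all genes, and 54.9% and 12.4% in polysome-associated mRNA, against 28.5% and 29.7%. The class medians were 0.39 ± 0.03 and 0.35 ± 0.01. In translation efficiency the medians were −0.08, 0.01 and −0.01, with 16 genes lower and 16 higher in all experiments (14.2% each, against 14.6% and 8.79% of all genes). By edgeR and DESeq2 0 were called, and 7 lower and 1 higher had an unadjusted p under 0.05 in edgeR (6.19% and 0.885%), near the 6.25% and 1.04% of all genes. The 20 V-ATPase subunits, which acidify lysosomes, had 0.63 ± 0.15 in total and 0.65 ± 0.19 in polysome-associated mRNA and −0.03, −0.09 and −0.03 in loading. Atp6v0c, a subunit of the proton channel, was the lowest of both classes with −1.83, 0.20 and −0.94. The glucosidase gene Gaa had −0.96, −0.07 and −0.67, and Atp6v1g1 −0.33, −0.14 and −0.68. The cathepsin gene Ctso had 0.42, 0.28 and 0.32, and Cltc, the clathrin heavy chain, 0.69, −0.03 and 0.45.

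The 18 genes that the study names or measured by qRT-PCR across gradients, some of them chosen from these libraries and so no independent evidence, had medians of 0.05, −0.04 and −0.01. By edgeR and DESeq2 0 were called, where 3 and 35 of all 11243 genes were, and the fitted values ran from −0.44 to 0.24. At an unadjusted p under 0.05 in edgeR 2 were lower (11.1%, against 6.25% of all genes). Slc11a1, a metal transporter of phagosomes, had −0.83, 0.19 and −0.69. The reference gene Actb had −0.61, −0.24 and −0.34, so it was lower in each experiment, and Slc11a2 had −0.37, −0.09 and −0.37. Sgsh had −0.62, 0.18 and −0.53. The values of Lamp1 (0.07, −0.17 and −0.10), Ctsd (−0.05, 0.17 and −0.04), Npc2 (−0.09, 0.14 and −0.22), Cln3 (−0.22, 0.02 and −0.08) and Cd63 (0.02, −0.31 and 0.02) changed sign between experiments. The subunit genes Atp6v1h and Atp6v1d had 0.34, −0.01 and 0.21, and 0.38, −0.15 and 0.36. Ctsc (0.36, 0.14 and 0.23) and M6pr (0.16, 0.05 and 0.14) were above 0 in each experiment. Lamp2, B2m, Ppia, Galc and Hyal1 had fitted values of 0.23, 0.13, 0.07, 0.07 and −0.05.

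The genes of the mTOR pathway itself had −0.06, −0.05 and −0.07 over 45 genes. Tfeb, the lysosomal transcription factor that mTOR keeps in the cytosol, was lower in total mRNA (−1.58) and had −1.28, 0.08 and −1.23 in loading. Lamtor4, which anchors mTOR complex 1 to the lysosome, had −0.48, −0.36 and −1.04. Rictor, which defines mTOR complex 2, and Fnip1 were the highest, with 0.30 and 0.28 in the fit. The 79 respiratory chain subunits had medians of 0.08, −0.09 and −0.15. Of these subunits, 12 had an unadjusted p under 0.05 in edgeR, all lower (15.2%, against 6.25% of all genes). Uqcr11 (complex III) and Ndufb7 (complex I) were the lowest with −0.66 and −0.64, and Atp5s and Ndufa12 the highest with 0.36 and 0.22. The 297 Zfp genes, which encode zinc finger proteins, had 0.22, −0.10 and 0.09. In all experiments 24 were lower (8.08%) and 21 higher (7.07%), against 14.6% and 8.79% of all genes. The extremes of the Zfp genes were Zfp651 (−1.22, from 15 counts upwards) and Zfp219 (−1.01), and Zfp773 (0.66) and Zfp799 (0.58).

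The remaining classes were described by their medians alone. Glycolysis had −0.24, 0.05 and −0.11, and the actin and tubulin cytoskeleton −0.19, 0.01 and −0.07. Autophagy had −0.08, −0.04 and −0.01, and the 9 macrophage markers −0.20, −0.05 and −0.06. Cholesterol synthesis, ribosome biogenesis, the proteasome and ATF4 targets with tRNA synthetases had means over the experiments of 0.00, −0.01, 0.00 and −0.02. The spliceosome with SR and hnRNP proteins had 0.03, −0.25 and 0.10, ER folding and translocation 0.14, −0.07 and 0.04, and the growth and survival genes known to be sensitive to eIF4E 0.21, −0.01 and 0.22. The 2 markers of other cell types had 0.06, 0.33 and −0.12.

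No gene was called higher. The 15 genes of smallest p that were higher in all 3 experiments were Hebp2, Zfp799, Ovca2, Arl5c, Golph3, Hbp1, Bcl6b, Tlr8, Adal, Zdhhc2, Slc35a5, Maff, Tnfrsf22, Dtwd1 and Mcm9. Their adjusted p was 0.659 in edgeR, and DESeq2 called Golph3, Hbp1 and Arl5c. In all of the 15 the lysates of LPS with torin1 were above the control lysates, as in 2.84% of all genes. These genes were chosen by sign and p in the same lysates, so this separation adds no support. Counts were as low as 17 in a library for Hebp2. Golph3, a protein of the Golgi membrane, had 103.8, 116 and 88.6 CPM of total mRNA in control and 109, 122 and 95.6 CPM with LPS and torin1. On polysomes it had 60.8, 76.4 and 60.1 CPM in control and 95.2, 99.7 and 84.5 CPM with LPS and torin1. The difference was 0.58, 0.31 and 0.38 by experiment and 0.43 in the fit (standard error 0.13). Arl5c, a small GTPase of the ARF family, rose in total mRNA from 5.87, 8.84 and 5.66 to 49.5, 51.7 and 52.5 CPM, and on polysomes from 6.89, 11.4 and 5.30 to 95.8, 102 and 74.0 CPM. Its difference in loading was 0.73, 0.63 and 0.58. Tlr8, a receptor for single-stranded RNA, had 0.41, 0.05 and 1.25, and Hbp1, a transcriptional repressor, 0.90, 0.14 and 0.47.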

How the data were processed

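The authors sequenced total and heavy-polysome mRNA of 9 lysates with stranded libraries after removal of ribosomal RNA. Alignment to GRCm38 used Hisat2 within the nextflow RNAseq pipeline 1.3, and the authors deposited raw counts from featureCounts for 11243 protein-coding genes without 0 counts in any of the 18 libraries. Libraries held 27800983 to 47725557 counts.

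From these counts, TMM-scaled log2(CPM + 0.5) gave the values by experiment. Differences in translation efficiency were tested with edgeR 4.0.16 (quasi-likelihood, R 4.3.3) over all 18 libraries. The model had the 9 lysates as blocks, which pair total and polysome-associated mRNA of the same cells, and a polysome-minus-total coefficient for each treatment. Total and polysome-associated mRNA were also tested singly in edgeR, on the 9 libraries of an RNA type with their own TMM scaling. These fits had no block for lysate or experiment, and their counts used the false discovery rate of 0.25 without a fold minimum. P-values were adjusted by Benjamini-Hochberg over all genes. Genes were called in translation efficiency at a false discovery rate of 0.25 and a fold of 1.2, after the study's methods. The study used anota2seq, which was not run here. An analysis of partial variance, written with limma 3.58.1, and DESeq2 1.42.0 served as alternatives. Scripts were tested on simulated data. Start sites were from RefSeq and coding lengths from GENCODE.

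Named genes were the 15 of smallest p in each direction with the same sign in all experiments, the 2 lowest and 2 highest members of each described class with at least 10 counts in each library, called genes and the genes the study measured. Comparison, classes and lists were chosen with earlier results of these data known. Some of the genes this rule names are not reported here.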

Additional observations from a re-analysis of the deposited data

How the results depend on the processing

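The count of 3 called genes depended on the model and the scaling. It was 0 without the lysate block (145 genes at an unadjusted p under 0.05), 0 with the 12 libraries alone (860), 0 with DESeq2's size factors (717), 0 with upper quartile scaling (703) and 0 at a false discovery rate of 0.05. DESeq2's Wald test called 35. The cause was not tested. Filters at a mean of 1 and 10 CPM and no fold minimum left the count at 3. The analysis of partial variance called 2 other genes, Hist1h2ad and Gsg1, and so 0 of the 3 and 0 ribosomal proteins. Leaving out an experiment gave 0 to 3708. In alternatives chosen after seeing the data, it was 0 without the lysates of LPS with torin1 of experiments 1 and 3 (206 at an unadjusted p under 0.05) and 0 without the LPS lysate of experiment 3 (958). The 2 lysates per treatment left without an experiment limit what these fits can show.

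A replicate block of the experiment within each RNA type, added to the lysate block, called 27 genes, 26 lower and 1 higher, including the 3 and 20 ribosomal proteins. Lysates of the same experiment number resembled each other in total mRNA, but not throughout in loading. Deviations of control and LPS with torin1 correlated at 0.530, 0.502 and 0.469 in total mRNA, and at −0.126, −0.206 and 0.270 in loading. By deviations in loading, 7 of 9 lysates matched best with their own number in another treatment.

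Class medians moved by more than the SD between experiments with DESeq2's size factors and upper quartile scaling for the V-ATPase (−0.00995 and −0.0124), chemokines (0.0588 and 0.0589), the mTOR pathway (−0.0150 and −0.0172) and autophagy (−0.00223 and −0.00460). Of 114 named genes, the sign turned for Rps4x (0.0220 with DESeq2's size factors and in its Wald test) and Rps3a1 (0.0378 in both). Leaving out an experiment also turned the sign of 13 genes, with ranges of Rps4x −0.18 to 0.12, Rps3a1 −0.17 to 0.16, Pabpc1 −0.00674 to 0.37, Atp5s −0.00709 to 0.77, Atf5 −0.85 to 0.0176, Cxcl11 −0.62 to 0.28, Hist2h2ab −0.20 to 0.41, Hist3h2a −0.0472 to 0.43, Cd63 −0.14 to 0.0223, Ctsd −0.0447 to 0.0877, Galc −0.0351 to 0.23, Hyal1 −0.26 to 0.20 and Npc2 −0.15 to 0.0267.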
